A study of Mus musculus with 2 samples.

Results

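The 10 genes described here are the cyclins and kinases that carry a cell from G1 into S phase: the D cyclins Ccnd1, Ccnd2 and Ccnd3, the E cyclins Ccne1 and Ccne2, the A cyclin Ccna2, the kinases Cdk2, Cdk4 and Cdk6, and the phosphatase Cdc25a. The set was given as a list of gene names, drawn up with earlier results of these data known, and all 10 were found among the 43346 genes of the deposited tables. The cells were G1E-ER4, a clonal mouse erythroid line with no Gata1 protein of its own. It makes Gata1, the master factor of red cell genes, as a fusion with the hormone-binding part of the estrogen receptor, which estradiol activates. Both libraries came from 1 group, cells kept in 17beta-estradiol at 10 nM for 7 hours, and polyA RNA was sequenced. No untreated cells and no other time were analysed here, so the values describe levels in treated cells and how far the 2 libraries differed, not a response to estradiol.

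D cyclins are made in response to growth signals and bind Cdk4 and Cdk6. These kinases phosphorylate the retinoblastoma protein Rb1 and its relatives, which frees E2F factors to switch on genes of S phase, the E and A cyclins among them. Cyclin E and cyclin A then activate Cdk2, and Cdc25a removes the inhibitory phosphates that hold Cdk2 back. Red cell precursors divide fast while they mature, and mice that lack cyclin D3 or Cdk6 have defects of red cell production.

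Replicate 1 held 59610969 estimated counts and replicate 2 held 44689405, and the 10 genes took 0.280% and 0.253% of them. The labels number them as biological replicates but give 1 biological sample record for both, and p-values between them may measure technical spread alone. All 9 erythroid markers examined were detected, at a summed level of 5277 and 6110 TPM (a level per length, scaled to the same total in every library). Gata1 was among them, at 1251 and 872 TPM. These cells make Gata1 as the fusion, so its detection says nothing of cell type. Of 24 markers of megakaryocytes and of myeloid, mast, lymphoid, stromal and endothelial cells, 5 were detected and 8 were at 0, and their summed level was 94.6 and 93.2 TPM. Among 12 of those markers with enough counts to test, 3 were called higher in replicate 2 by the test between libraries described below, which called 2.80% of all genes higher, and none of the 3 was above 0.36 TPM in either library. Their part in the results below was not tested.

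By gene TPM, Cdk4, Ccnd3 and Ccna2 led the set, Ccnd1 was at or near 0, and the other genes spread over the range between. Of the 10 genes, 9 were detected, taken as at least 1 TPM in both libraries, against 38.3% of 21474 protein-coding genes. The median level of the 10 genes was 56.1 TPM. Over all protein-coding genes the median was 0.03 TPM, and over the detected ones 20.8 TPM. By mean gene TPM the order was Cdk4, Ccnd3, Ccna2, Ccne1, Ccnd2, Cdc25a, Cdk2, Cdk6, Ccne2 and Ccnd1. Ccnd3 and Ccna2 were the only neighbours in that order whose values overlapped between libraries. The place of Cdk4 rested on this scale. On the summed TPM of transcripts with a consensus coding sequence (CCDS), Ccnd3 led at 593 TPM, then Ccnd2 at 68.3, Ccna2 at 64.8, Cdc25a at 43.8, Ccne1 at 38.6, Cdk2 at 21.3, Cdk6 at 12.03, Cdk4 at 10.5 and Ccne2 at 2.14. With all counts of a gene placed on the length of its leading CCDS transcript, Ccnd3 led at 626 TPM, Cdk4 followed at 383 and the other genes kept the order of gene TPM.

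**Figure D1:**
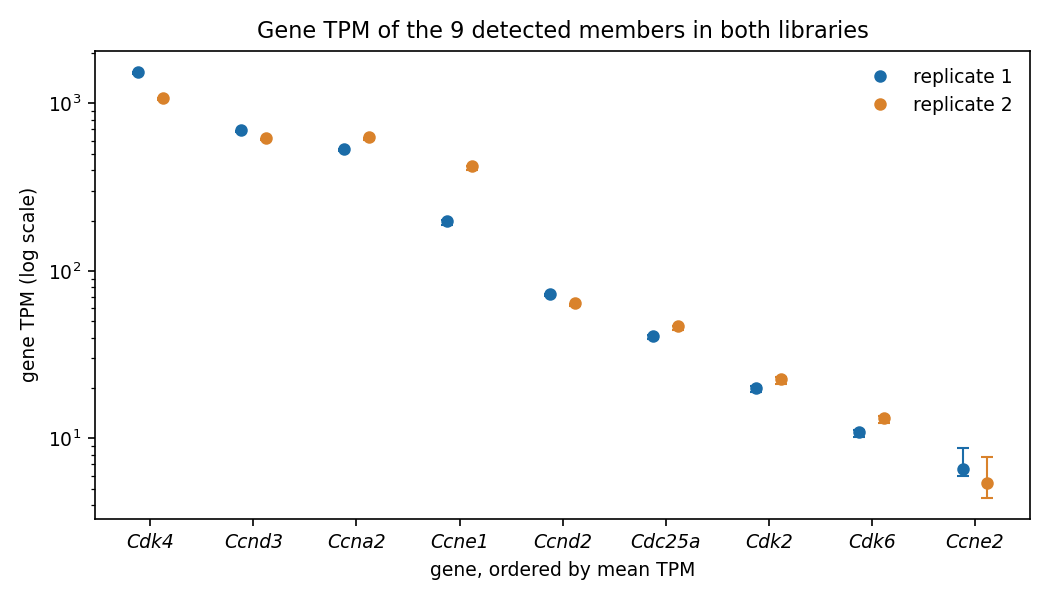
Gene TPM (log scale) of the 9 detected genes in replicate 1 and replicate 2. Points are the deposited TPM, and bars span the interval the authors deposited around their posterior mean, whose level was not stated. A point can lie at or beyond the end of its bar. Ccnd1, at 0.01 and 0 TPM, is not drawn. Ccne1 shows the widest gap between the libraries, at 198 and 421 TPM.

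Among the D cyclins, which bind and activate Cdk4 and Cdk6, nearly all of the signal was Ccnd3. Ccnd3 (ENSMUSG00000034165, chromosome 17, 47505051 to 47599691, plus strand, GRCm38) stood at 690.3 TPM in replicate 1 and 622 TPM in replicate 2 (656 ± 48.3, mean ± SD, n = 2). Those levels rested on 58757 and 39792 counts and ranked it 201 among protein-coding genes. Ccnd2 (chromosome 6, 127125162 to 127152193, minus strand), a D cyclin that growth factors induce in many blood cells, stood at 72.7 and 64.0 TPM, a mean of 68.3 ± 6.17 (SD, n = 2). The values of these genes did not overlap in either library.

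Ccnd1 (chromosome 7, 144929931 to 144939925, minus strand), the D cyclin of many epithelial and mesenchymal cells, had 1 count in replicate 1 and 0 counts in replicate 2. In replicate 2 a count of 0 allows up to 3 counts, which is 0.0236 TPM on the length of Ccnd1-201, for counting error only. The interval the authors deposited for Ccnd1 there reached 0.265 TPM. Ccnd3 was 26342 times the first of these limits and 2349.5 times the second. In replicate 1 the ratio of Ccnd3 to the single Ccnd1 count was 125372, with a 95% exact Poisson interval of 22502 to 4951940. Exons of Ccnd1 share 1100 bases with LTO1 on the other strand, which was read at 26.2 and 24.5 TPM.

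The split between D cyclins repeated closely. Ccnd3 held 90.5% and 90.7% of D cyclin TPM, a mean of 90.6% ± 0.143 (SD, n = 2), and Ccnd2 held 9.53% and 9.33%. The ratio of Ccnd3 to Ccnd2 was 9.50 and 9.72. On raw counts, which favour the longer Ccnd2 transcript, it was 2.88 and 3.17.

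Ccnd3 has annotated starts 88385 bases apart, and the transcripts of the downstream one were assigned most of the gene's TPM. Its 300-base windows around the RefSeq starts are shown because the transcripts of these starts differed in assigned TPM. Each holds 250 bases before and 50 from the start (GRCm38.p6, plus strand). The upstream window is chr17:47504801-47505100 and the downstream one chr17:47593217-47593516. Capitals mark the one CCAAT box found, and the windows held none of the other motifs described below.
Ccnd3 upstream: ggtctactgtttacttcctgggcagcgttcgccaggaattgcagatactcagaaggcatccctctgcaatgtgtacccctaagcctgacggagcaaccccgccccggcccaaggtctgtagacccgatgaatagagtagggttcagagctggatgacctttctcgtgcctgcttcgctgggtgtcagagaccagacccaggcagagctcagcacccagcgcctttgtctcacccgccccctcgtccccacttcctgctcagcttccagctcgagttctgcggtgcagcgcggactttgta
Ccnd3 downstream: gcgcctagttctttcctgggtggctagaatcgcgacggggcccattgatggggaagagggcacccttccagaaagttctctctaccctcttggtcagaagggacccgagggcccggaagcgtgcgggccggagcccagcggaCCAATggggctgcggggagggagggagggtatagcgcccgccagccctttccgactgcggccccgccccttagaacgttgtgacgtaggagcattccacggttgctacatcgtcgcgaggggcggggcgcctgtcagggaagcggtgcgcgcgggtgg

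The 3 transcripts that begin at the downstream start summed to 591 and 605 TPM, which was 85.6% and 97.4% of Ccnd3. They include Ccnd3-205, a transcript of 1977 bases with a CCDS, at 586 and 599.8 TPM. The 13 transcripts of the upstream start summed to 4.14 and 3.59 TPM, which put transcripts of the downstream start 143-fold and 169-fold higher. This split is the authors' assignment of fragments to transcripts. Reads were not analysed here, and the use of either start was not checked. The libraries differed most in transcripts that start further inside the gene, at 94.99 and 12.8 TPM. The leading one of these, Ccnd3-208, encodes 96 codons against 292 in Ccnd3-205 and stood at 91.6 TPM in replicate 1 and 10.9 TPM in replicate 2.

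Cdk4 (ENSMUSG00000006728, chromosome 10, 127063534 to 127067920, plus strand), a kinase partner of the D cyclins, had the highest gene-level value of the set and the least of it in its full-length coding transcript. Its gene TPM was 1542 in replicate 1 and 1079.5 in replicate 2 (1311 ± 327, mean ± SD, n = 2), from 42462 and 21853 counts. Cdk4-201, the only CCDS transcript, received 11.1 and 9.84 TPM, which was 0.722% and 0.911% of the gene. Cdk4-202, a protein-coding transcript of 714 bases with no CCDS, received 1227 and 938 TPM, or 79.6% and 86.9%. The retained-intron transcript Cdk4-209, of 468 bases, received 219 and 79.96 TPM.

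The next lines show where Cdk4-202 leaves Cdk4-201. They give 30 bases that both share in lower case and the following 30 bases of each in capitals, in GENCODE M21 transcripts on GRCm38.
Cdk4-201: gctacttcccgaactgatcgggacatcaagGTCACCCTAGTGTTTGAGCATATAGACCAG
Cdk4-202: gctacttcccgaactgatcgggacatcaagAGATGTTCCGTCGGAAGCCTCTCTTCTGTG
Both run together to chromosome 10, base 127064630. Cdk4-202 resumes at base 127065249, leaving out 352 bases of Cdk4-201, and its reading frame has 158 codons against 303. Reads were not analysed here, and the use of this junction was not checked. Exons of Cdk4 share 641 of 3249 bases with Tspan31 on the other strand, which stood at 35.8 and 18.4 TPM. No source at hand says whether strand entered the authors' quantification. The gene counts of Cdk4 were whole numbers, 42462 in replicate 1 and 21853 in replicate 2. For all 10 genes the authors' posterior SD of the gene count was 0 in both libraries. The deposited counts of the 10 genes thus carried no uncertainty over which gene a read was given to. Whether reads on the shared bases were placed on the right strand was not tested.

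Cdk6 (chromosome 5, 3341485 to 3531008, plus strand), the other kinase that binds D cyclins, stood at 10.9 and 13.2 TPM, a mean of 12.04 ± 1.66 (SD, n = 2). All of its TPM lay in the CCDS transcripts Cdk6-202 and Cdk6-201, the only ones quantified. Cdk6-202 received 8.14 and 12.5 TPM and Cdk6-201 2.71 and 0.71 TPM. The tables gave Cdk6-202 a length of 3735 bases, against 11525 in the later annotation.

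How far Cdk4 exceeded Cdk6 rested on which transcripts were counted. By gene TPM the ratio of Cdk4 to Cdk6 was 142 and 81.7, and Cdk4 made up 99.3% and 98.8% of the pair. With every count of the gene placed on the length of its leading CCDS transcript, the ratio was 44.6 and 24.99. On the TPM of CCDS transcripts alone it was 1.03 and 0.745, so the libraries fell on either side of equality. Both of these scales were chosen after the data were examined. The sum of D cyclins over the sum of Cdk4 and Cdk6 was 0.491 and 0.628 by gene TPM, 1.57 and 2.01 with counts on the CCDS length, and 30.004 and 28.8 on CCDS transcripts.

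**Figure D2:**
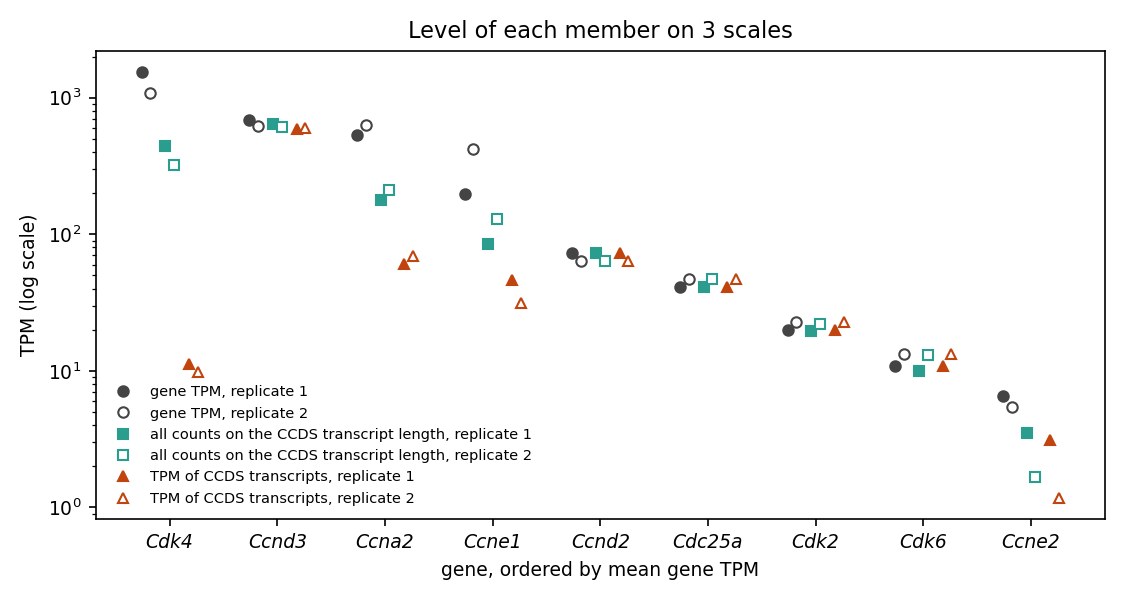
Level of the 9 detected genes in TPM (log scale) on 3 scales: gene TPM (circles), all counts of the gene on the effective length of its leading CCDS transcript (squares), and the summed TPM of CCDS transcripts (triangles). Filled symbols are replicate 1 and open symbols replicate 2. The scales lie together for Ccnd2, Cdc25a, Cdk2 and Cdk6 and apart for Cdk4, Ccna2 and Ccne1. Only CCDS transcripts were quantified for Ccnd2, Cdc25a, Cdk2 and Cdk6, so their scales had little room to differ. Cdk4 ran from 1311 TPM on the first scale to 383 on the second and 10.5 on the third, as means of both libraries.

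The RefSeq promoter windows of Cdk4 (chr10:127063285-127063584) and Cdk6 (chr5:3343643-3343942), both on the plus strand of GRCm38.p6, are shown because both held the E-box CACGTG, the motif that Myc and its partners bind. Capitals mark the E-boxes.
Cdk4: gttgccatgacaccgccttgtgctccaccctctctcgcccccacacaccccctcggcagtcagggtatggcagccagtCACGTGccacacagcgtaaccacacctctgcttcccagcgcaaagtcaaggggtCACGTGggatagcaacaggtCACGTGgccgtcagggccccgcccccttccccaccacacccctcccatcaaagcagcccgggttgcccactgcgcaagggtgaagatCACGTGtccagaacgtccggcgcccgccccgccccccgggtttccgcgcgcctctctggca
Cdk6: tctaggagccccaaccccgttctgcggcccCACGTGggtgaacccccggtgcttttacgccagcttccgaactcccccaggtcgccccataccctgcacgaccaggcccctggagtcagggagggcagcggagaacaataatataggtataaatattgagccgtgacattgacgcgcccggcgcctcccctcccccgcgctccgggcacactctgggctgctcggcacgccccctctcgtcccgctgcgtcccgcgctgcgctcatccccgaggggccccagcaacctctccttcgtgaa
Cdk4 had 4 matches, beginning at -172, -118, -98 and -11 from the start, and Cdk6 had 1, at -220. Of 32851 RefSeq promoter windows of the same length, 7.15% held at least one. A match describes the letters and is not evidence of binding.

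RefSeq windows were at hand for 6 of the genes, Ccnd3, Ccne1, Cdc25a, Cdk2, Cdk4 and Cdk6, with 7 windows in all, and not for Ccnd1, Ccnd2, Ccne2 and Ccna2. Each was searched on both strands for 3 further motifs. The E2F spellings TTTCCCGC, TTTCGCGC, TTTGCCGC and TTTGGCGC matched once in Cdc25a, at -67, and once in Cdk2, at -140, against 2.26% of all windows. The Cdc25a window (chr9:109875329-109875628, plus strand) is shown as the one that holds both an E2F spelling and more than one CCAAT box, all in capitals.
Cdc25a: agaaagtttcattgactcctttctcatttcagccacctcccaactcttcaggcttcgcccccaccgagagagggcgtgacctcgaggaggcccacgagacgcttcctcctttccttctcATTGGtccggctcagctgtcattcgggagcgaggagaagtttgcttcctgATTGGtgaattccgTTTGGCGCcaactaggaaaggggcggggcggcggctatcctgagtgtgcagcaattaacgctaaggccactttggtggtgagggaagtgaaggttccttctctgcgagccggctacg
CCAAT matched at -131 and -81 in Cdc25a, at -45 in Cdk2 and at -108 in the downstream Ccnd3 window, against 37.4% of all windows. The GATA spelling AGATAA, its relative TGATAA and each of them with a final G in place of A matched in 0 of the 7 windows, against 29.8% of all. The 7 windows held 56.7% to 76% G and C, against a median of 52.7% over all windows. The shares of all windows, that of the E-box included, were not matched for this, and its part in the matches was not tested. No motif overlapped another.

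Ccne1 (ENSMUSG00000002068, chromosome 7, 38097984 to 38107534, minus strand), the E cyclin that opens S phase with Cdk2, differed most between the libraries by gene TPM, and its coding transcript ran the other way. Gene TPM was 198 in replicate 1 and 421 in replicate 2 (309.8 ± 158, mean ± SD, n = 2), from 7936 and 8459 counts. The CCDS transcript Ccne1-201 received 45.9 and 31.4 TPM, or 23.1% and 7.45% of the gene. Ccne1-202, which is annotated as a target of nonsense-mediated decay, received 152 and 343 TPM. The processed transcript Ccne1-205 received 0.77 and 46.5 TPM. So the log2 ratio of replicate 2 over replicate 1 was 1.09 by gene TPM, 0.72 by counts and -0.55 on the CCDS transcript. The average transcript length behind the gene TPM was 945 bases in replicate 1 and 713 bases in replicate 2.

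Ccne2 (chromosome 4, 11191351 to 11204779, plus strand), the second E cyclin, stood at 6.58 and 5.40 TPM, a mean of 5.99 ± 0.834 (SD, n = 2), from 490 and 164 counts. Its CCDS transcripts summed to 3.10 and 1.18 TPM, and the processed transcript Ccne2-206, of 461 bases, received 2.96 and 3.32 TPM. Ccne2-202, the leading CCDS transcript, received 2.28 and 0.58 TPM. Exons of Ccne2 share 609 bases with Ints8 on the other strand, at 8.86 and 11.6 TPM. The ratio of Ccne1 to Ccne2 was 30.1 in replicate 1 and 78.0 in replicate 2 by gene TPM, and 14.8 and 26.6 on CCDS transcripts. Ccne1 was the higher of the pair in both libraries on every scale computed.

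Ccna2 (ENSMUSG00000027715, chromosome 3, 36564865 to 36572150, minus strand), the A cyclin of S phase and G2, stood at 537 and 627 TPM, a mean of 582 ± 63.7 (SD, n = 2), from 25491 and 20932 counts. The split between its transcripts repeated closely. Ccna2-201, the CCDS transcript, received 60.3 and 69.3 TPM, or 11.2% and 11.1% of the gene. The retained-intron transcript Ccna2-202, of 856 bases, received 476 and 557 TPM. By counts rather than per length, Ccna2-201 held 33.7% and 33.0%. Exons of Ccna2 share 510 bases with Exosc9 on the other strand, at 1.49 and 0.36 TPM.

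The points where Ccna2-202 and Ccne1-202 leave their CCDS partners are shown in the same way as for Cdk4, with shared bases in lower case and the bases after the split in capitals.
Ccna2-201: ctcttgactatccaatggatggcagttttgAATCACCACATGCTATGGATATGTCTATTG
Ccna2-202: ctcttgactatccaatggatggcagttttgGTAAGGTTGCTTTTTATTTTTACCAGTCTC
Ccne1-201: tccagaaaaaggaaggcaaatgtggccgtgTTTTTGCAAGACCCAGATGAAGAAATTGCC
Ccne1-202: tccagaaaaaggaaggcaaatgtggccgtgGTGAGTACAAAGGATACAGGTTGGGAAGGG
The short transcript of each pair reads on past the splice donor. Ccna2-202 leaves after base 36570736 of chromosome 3 and holds 285 bases of intron that Ccna2-201 lacks. Ccne1-202 leaves after base 38106596 of chromosome 7 and holds 248 bases that Ccne1-201 lacks. PolyA RNA can include unspliced transcripts, and the tables do not separate these from a spliced, stable product. The tables gave Ccne1-202 a length of 629 bases, against 656 in the annotation the sequence comes from.

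**Figure D3:**
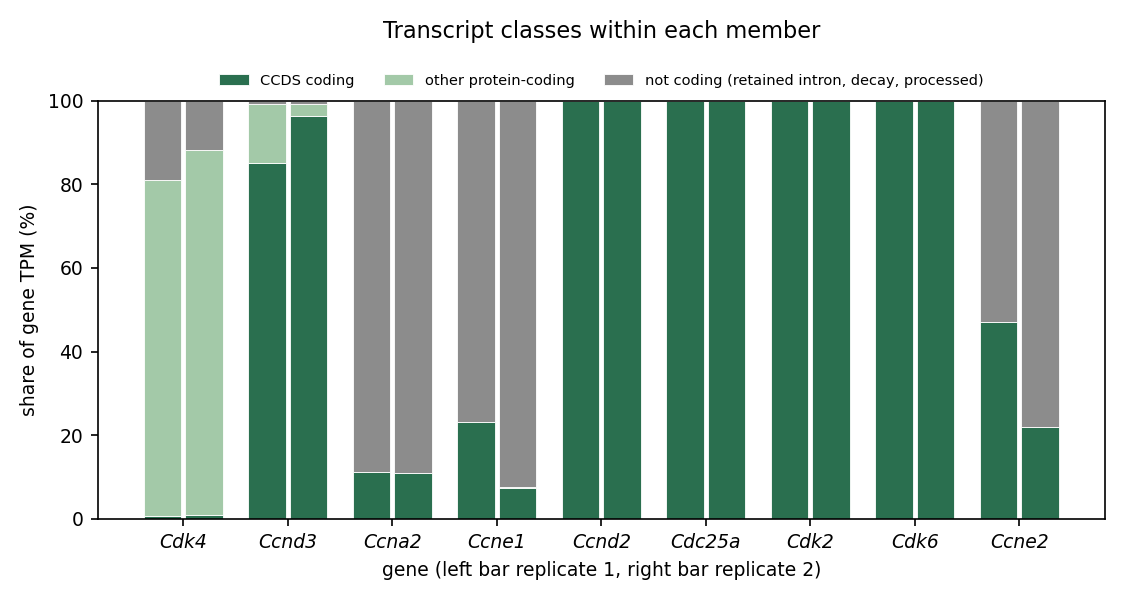
Share of gene TPM (%) in CCDS coding transcripts, other protein-coding transcripts and transcripts annotated as not coding, for each detected gene (left bar replicate 1, right bar replicate 2). Of 9 genes, 4 (Ccnd2, Cdk2, Cdk6 and Cdc25a) had all of their TPM in CCDS transcripts in both libraries. No other transcripts of these genes were quantified, so that share was fixed by the annotation. Cdk4, Ccna2, Ccne1 and Ccne2 had less in CCDS transcripts than in the others, in both libraries.

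Cdk2 (chromosome 10, 128697939 to 128705031, minus strand), the kinase of cyclins E and A, stood at 20.0 and 22.6 TPM, a mean of 21.3 ± 1.85 (SD, n = 2). Its CCDS transcripts Cdk2-202 and Cdk2-201, which encode 346 and 298 codons, carried all of it and were the only ones quantified. Cdk2-202 received 14.4 and 14.9 TPM and Cdk2-201 5.63 and 7.70 TPM. E and A cyclins together exceeded Cdk2 by 37.1 and 46.6 times by gene TPM, by 13.6 and 15.4 times with counts on the CCDS length, and by 5.47 and 4.50 times on CCDS transcripts. Cdk4 over Cdk2 was 77.1 and 47.7 by gene TPM, 22.5 and 14.6 with counts on the CCDS length, and 0.557 and 0.435 on CCDS transcripts. Ccne1 over Ccna2 was 0.370 and 0.672 by gene TPM and 0.760 and 0.453 on CCDS transcripts, so Ccna2 was the higher in both libraries either way.

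Cdc25a (chromosome 9, 109875579 to 109893895, plus strand), the phosphatase that activates Cdk2, stood at 40.9 and 46.7 TPM, a mean of 43.8 ± 4.07 (SD, n = 2), from 7194 and 5742 counts. The tables list 1 transcript for it, Cdc25a-201, so its gene and CCDS levels are the same value. The later annotation adds 6 transcripts that were not quantified.

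By scaled counts, none of the 9 genes tested differed between the libraries by the fold used. By gene TPM, Ccne1 did, at a log2 ratio of 1.09. An exact binomial test, two-sided and on counts scaled by TMM, was run for the 9 genes that reached 10 counts in sum, with Benjamini-Hochberg adjustment over all 11285 genes tested. At an adjusted p under 0.05 and at least 2-fold, 0 of 9 were called, against 11.2% of all genes tested, made up of 2.80% higher and 8.37% lower in replicate 2. Without the fold minimum 9 of 9 passed, with 6 higher and 3 lower in replicate 2, and so did 68.0% of all genes, made up of 33.3% higher and 34.6% lower. That test takes counting noise as the only error. With the dispersion of the pair itself (a biological coefficient of variation of 0.288), edgeR's exact test called 0 of 9, against 0.895% of all genes tested. That dispersion was estimated from the same 2 libraries taken as 1 group. It counts the difference under test as noise, so the result cannot show that the libraries were alike.

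Log2 ratios of replicate 2 over replicate 1 by counts were 0.72 for Ccne1, 0.50 for Cdk6, 0.34 for Ccna2, 0.30 for Cdc25a and 0.28 for Cdk2. They were -0.08 for Ccnd2, -0.33 for Cdk4 and -0.95 for Ccne2. For Ccnd3 the ratio was 0.06 (exact binomial test, adjusted p = 5.6e-11), and it turned to -0.15 when libraries were scaled by total counts or when TPM was used. Scaling by total counts moved every log2 ratio by -0.21, which brought Ccne2 to -1.16 and past the fold minimum, as 1 of 9, against 14.2% of all genes tested on that scaling. The median absolute log2 ratio was 0.33 for the 9 genes and 0.39 for all genes tested.

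**Figure D4:**
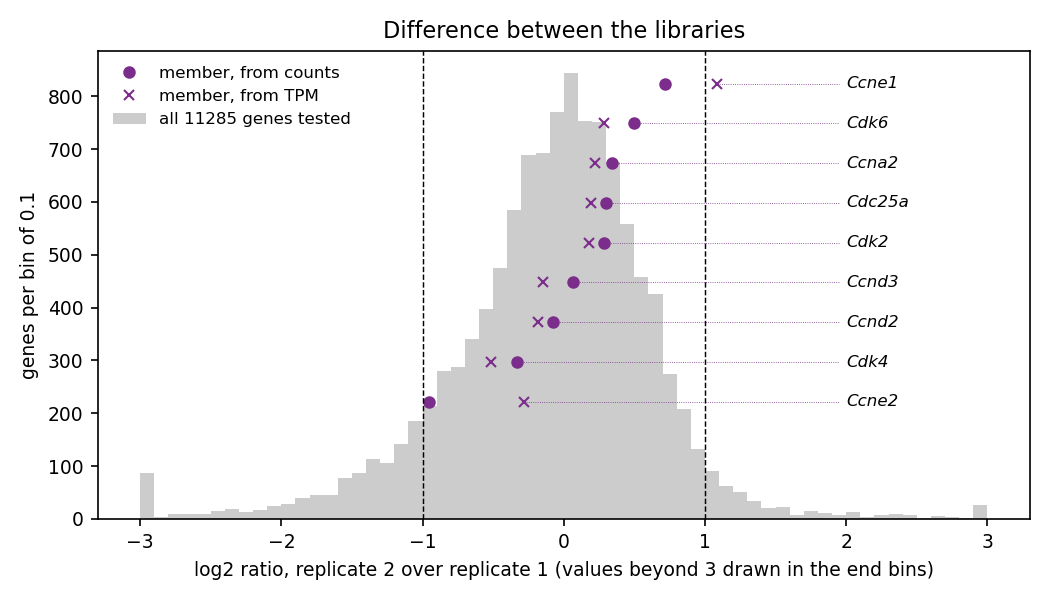
Log2 ratio of replicate 2 over replicate 1 for 9 genes of the set (circles, from counts scaled by TMM; crosses, from TPM) over the distribution of all 11285 genes tested (grey, number of genes per bin of 0.1; values beyond 3 fall in the end bins). Heights of the symbols only separate the genes, and dashed lines mark 2-fold. All circles lie within the dashed lines, with Ccne2 nearest to one at -0.95. The cross of Ccne1, at 1.09, lies beyond.

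Paralogs can share reads, which limits such ratios. The authors' posterior SD of the gene count was 0 in both libraries for 10 of 10 genes, and for 87.5% of the 10135 protein-coding genes tested. The split between transcripts of a gene carried more uncertainty, and the authors' intervals covered it in part. They ran from 1190 to 1223 TPM for Cdk4-202 and from 10.04 to 11.99 TPM for Cdk4-201 in replicate 1.

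Around these genes, most of the listed regulators, targets and other CDKs and cyclins were expressed. Of 68 genes in 9 lists, 59 were detected, against 38.3% of all protein-coding genes. The median over the 68 was 24.4 TPM, against 0.03 TPM over all protein-coding genes and 20.8 TPM over detected ones. Of 61 tested, 2 were called higher and 5 lower in replicate 2, against 2.80% and 8.37% of all genes tested. Among CDK inhibitors 4 of 7 were detected and 0 of 4 tested were called. Cdkn1a (p21), which blocks Cdk2 complexes, led at 116 and 96.7 TPM. The Ink4 inhibitor of Cdk4 and Cdk6, Cdkn2c (p18), stood at 80.5 and 95.3 TPM. Cdkn1b (p27) stood at 65.7 and 76.9 TPM. All 3 pocket proteins, which Cdk4 and Cdk6 phosphorylate, were detected, led by Rb1 at 14.2 and 15.0 TPM, and all 10 E2F and DP genes, led by E2f1 at 82.0 and 104 TPM, then E2f4 and E2f8. None of these 13 was called.

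Among 8 genes of CDK activation 7 were detected, led by the chaperone partner Cdc37 at 287 and 253 TPM. Cks2, a small CDK-binding subunit, was called lower in replicate 2, at 174 and 46.7 TPM (log2 ratio -1.76). The inhibitory kinases Pkmyt1 and Wee1 were both detected, at 92.97 and 23.4 TPM on average, and 0 of 2 were called. All 9 genes of cyclin and inhibitor turnover were detected, led by Fzr1, Ccnf and Fbxo31, and Fbxo5, an inhibitor of the anaphase-promoting complex, was called lower at 13.3 and 4.46 TPM.

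Of the later cyclins and Cdk1, 3 of 5 were detected and 2 of 3 tested were called lower in replicate 2, against 8.37% of all genes tested. Cdk1, the mitotic kinase, stood at 48.1 and 11.8 TPM (log2 ratio -1.36) and Ccnb2, a B cyclin, at 66.8 and 28.1 TPM (log2 ratio -1.13). The list summed to 119.8 TPM in replicate 1 and 43.5 TPM in replicate 2 by gene TPM. Ccna2 stood at 537 and 627 TPM by gene TPM, and at 60.3 and 69.3 TPM on its CCDS transcript. Transcripts of the listed genes were not examined. Of 13 other CDKs 11 were detected, led by Cdk16, Cdk8 and Cdk11b, and Cdk13, a transcription kinase, was called higher at 30.5 and 60.6 TPM. Of 11 other cyclins 10 were detected, led by Ccni, Ccnk and Ccng1. Ccni was called higher at 177 and 401 TPM, and Ccnc, the cyclin of the Mediator kinase, lower at 0.57 and 0.39 TPM.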

How the data were processed

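PolyA RNA from 2 libraries of 1 group was analysed. The authors derived gene and transcript values from transcriptome alignments on mm10 with GENCODE M4, per the notes deposited beside the tables. The aligner, the quantifier and the use of strand are not given in the sources used here. Expected counts, as deposited, are estimated fragments per gene or transcript, not normalized, and were rounded for testing. The deposited TPM values are per effective length and sum to an equal total in both libraries, and posterior means and intervals stand beside both. The authors' percent column gives each transcript's share of its gene.

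Genes were matched by identifier to GENCODE M21 on GRCm38, which named 42462 of 43346 gene rows and all 54 transcript rows of the 10 genes; 24 transcripts of these genes are in M21 only. Rows without a gene identifier held 2 and 0 counts. Genes that reached 10 counts in sum entered an exact binomial test, two-sided, of their counts against TMM-scaled library sizes (edgeR 4.0.16, R 4.3.3), with Benjamini-Hochberg adjustment and log2 ratios at a prior count of 0.5. A quasi-likelihood fit needs replicated groups and was not run. The test compares these 2 libraries, and the spread between them may be technical. The test was tried first on simulated counts that held counting noise alone, the error it assumes. Such counts cannot show how it behaves on libraries that differ by more than counting noise. Alternatives used DESeq2 1.42.0 size factors, other count minimums, posterior means and other scales per length. Intervals and limits cover counting error only. Promoter windows came from RefSeq on GRCm38.p6, and junction sequences from GENCODE M21 transcripts, read with Python 3.11.15.

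The genes and lists were chosen with earlier results of these data known. Named were the 10 genes, transcripts with a mean share of at least 10%, the 3 highest of each pathway list and up to 3 called in it. Ccne1-205, Ccnd3-208 and overlapping genes were named after their values were seen.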

Additional observations from a re-analysis of the deposited data

How the results depend on the processing

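The count of detected genes was 9 under every alternative tried, whether the minimum was 0.5 or 5 TPM, with posterior means, and in each library alone. The minimum of 0.5 TPM and the single libraries could not lower that count, and only Ccnd1 could have raised it. The count of the genes called between libraries was 1 with total-count scaling and 9 without a fold minimum, against 0 as reported. The count of all genes called was 1261 as reported, 7672 without a fold minimum and 101 with edgeR's exact test on the dispersion of the pair. The log2 ratio of Ccnd3 reversed from 0.06 to -0.15 with total counts and to -0.15 with TPM, and no other gene changed sign under the alternatives for this ratio. On the TPM of its CCDS transcript, a scale outside them, Ccne1 turned to -0.55.

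Several shares and ratios moved with the length scale by more than the spread between libraries. The mean ratios of Ccne1 to Ccne2 and to Ccna2 moved by less than their wide SD on every scale. The mean Ccne1 share did so on all but raw counts and CCDS transcripts. An SD from 2 libraries is a loose bound. On CCDS transcripts Ccne1 to Ccne2 was 14.8 and 26.6, both below the 30.1 and 78.0 by gene TPM. Ccne1 to Ccna2 was higher in replicate 2 by gene TPM but higher in replicate 1 on CCDS transcripts. On raw counts, not per length, Ccnd3 held 75.1% and Ccnd2 24.9% of D cyclins, Ccne1 held 96.1% of E cyclins, and Cdk4 held 94.5% of Cdk4 and Cdk6. On that scale Ccnd3 to Ccnd2 was 3.02, Cdk4 to Cdk6 18.5 and Cdk4 to Cdk2 15.5. Counts over the annotated length gave 90.1%, 9.92% and a ratio of 9.09 for Ccnd3, Ccnd2 and Ccnd3 to Ccnd2. TPM of CCDS transcripts, added after the data were examined, gave 89.7% for Ccnd3, 10.3% for Ccnd2, 95.02% for Ccne1 and 46.7% for Cdk4. The ratios on it were 8.73 for Ccnd3 to Ccnd2, 0.885 for Cdk4 to Cdk6 and 0.496 for Cdk4 to Cdk2. Gene counts on the CCDS length, also added, gave 90.2% for Ccnd3, 9.84% for Ccnd2 and 97.0% for Cdk4, with ratios of 9.18, 34.8 and 18.6. Posterior mean TPM moved no share or ratio by more than 1 SD. Shares of leading transcripts moved on raw counts for 3 of 9 genes, Ccne1-202 to 57.7%, Ccne2-206 to 16.0% and Ccna2-202 to 66.6%. The causes were not tested beyond the change of length scale itself.

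In single libraries the ranges were 90.5 to 90.7% for Ccnd3, 9.33 to 9.53% for Ccnd2, 96.8 to 98.7% for Ccne1 and 98.8 to 99.3% for Cdk4. The ratios ranged from 9.50 to 9.72 for Ccnd3 to Ccnd2, 30.1 to 78.0 for Ccne1 to Ccne2, 81.7 to 142 for Cdk4 to Cdk6, 47.7 to 77.1 for Cdk4 to Cdk2 and 0.370 to 0.672 for Ccne1 to Ccna2. No paired analysis was possible because there is 1 group. Groups of 2 libraries allow no search for outlying samples. With 1 and 0 counts of Ccnd1, depth limits what can be said of its level.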
